A study of Mus musculus with 4 samples.

Results

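The matrix proteases of the MMP, ADAM and ADAMTS families and their TIMP inhibitors were examined in mouse heart muscle cells after pressure overload. Members were taken by name alone, as every gene whose symbol begins with Mmp, Timp or Adam followed by a digit, or with Adamts. This rule found 85 of the 22322 genes in the count files, which were 23 MMP, 4 TIMP, 34 ADAM, 19 ADAMTS and 5 ADAMTS-like genes. Pressure overload was produced by transverse aortic constriction (TAC), in which the aorta is narrowed by surgery, and 2 TAC libraries were compared with 2 libraries from sham-operated mice. According to the methods of the study, male mice were operated on at 2 months of age, heart failure was examined 14 weeks after surgery, and each library came from cardiomyocytes of 1 heart isolated with a Langendorff perfusion system. The same methods elsewhere call the animals 14 weeks old, and no source used here gives the strain.

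Matrix metalloproteinases (MMPs) are zinc enzymes that cut collagens, gelatin and other proteins of the extracellular matrix, and most are secreted while the membrane-type members stay on the cell surface. Tissue inhibitors of metalloproteinases (TIMPs) block them, and Timp3 also blocks several ADAM and ADAMTS enzymes. ADAMs are membrane-bound enzymes that release the outer part of growth factors, cytokines and receptors, a process called shedding. ADAMTS enzymes are secreted and cut proteoglycans or trim procollagen, whereas ADAMTS-like proteins share their outer domains but lack the protease domain. In the heart, most MMP and TIMP expression is known from fibroblasts, vessel cells and leukocytes, while heart muscle cells also make some of them.

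The libraries held 24237777 to 32118323 expected counts, and the 85 members together took 0.0471% to 0.0686% of them. After the low-count filter of edgeR, 12499 genes were tested, of which 42 were members. Heart muscle genes were abundant in every library, with 9 markers such as Myh6 summing to 64400 to 71800 CPM (CPM are counts scaled to library size, here with TMM factors). Markers of other heart cells were also detected, and all 10 fibroblast, 10 endothelial, 10 macrophage and 10 mural markers had counts. TAC 1 stood apart from the other libraries, with 47.42% of its counts from 13 mitochondrial genes against 39.84% to 40.85% and with the lowest TMM factor, 0.868. The TAC libraries also differed more from each other (chi-square per degree of freedom 26.71) than the sham libraries did (8.08). With n = 2 per group the smallest p of an exact permutation test is 0.333, so each p below rests on a spread that edgeR pools over genes.

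Per transcript length, 15 members had a mean deposited FPKM (fragments per kilobase of transcript, scaled to library size) over 2, and 4 had one over 10. The highest was Adamtsl5, an ADAMTS-like gene, with FPKM values of 22.6 and 22.36 in the sham libraries and of 27.8 and 31.57 in TAC 1 and 2. Next came Mmp15, the membrane-type enzyme MT2-MMP, with a mean FPKM of 15.9, then Timp3 with 14.8 and Adam9 with 12.7. The ranges of these 3 genes over the 4 libraries overlapped, so their order is not set beyond the spread, whereas Adamtsl5 was above each of them in every library. Adamtsl4 and Timp2 followed at mean FPKM values of 8.44 and 8.24, and then the sheddases Adam15, Adam17 and Adam10 at 7.43, 7.04 and 6.68. By family, 6 ADAM, 3 TIMP, 2 MMP, 2 ADAMTS and 2 ADAMTS-like genes were over an FPKM of 2.

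**Figure D1:**
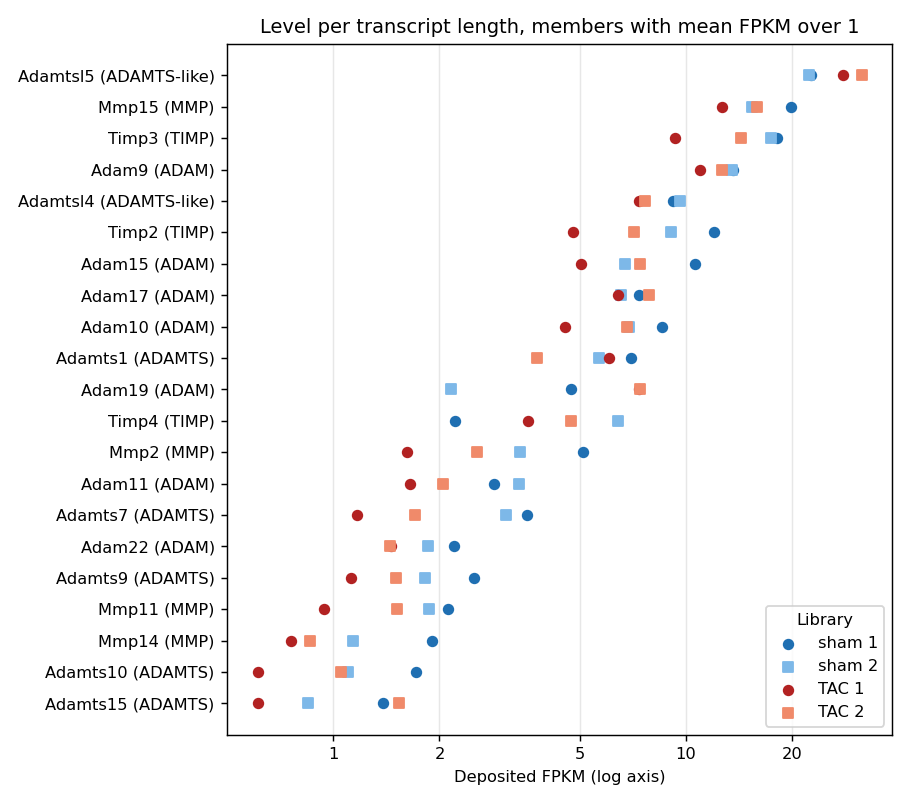
Deposited FPKM (log axis) of the 21 members with a mean FPKM over 1, one point per library, with sham in blue and TAC in red. Adamtsl5 stands highest in all 4 libraries, and Adam19 is the clearest case of TAC points lying to the right of sham points.

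At the other end, 43 members did not pass the low-count filter, and none of these had more than 15 counts in a library. For 23 of them the count was 0 in all libraries. These included 16 of the 22 ADAM genes left outside the other groups, which are mostly genes of the male germ line. They also included 5 MMP genes, namely the interstitial collagenases Mmp1a and Mmp1b, the matrilysin Mmp7, the enamelysin Mmp20 and Mmp21. Mmp8, the collagenase of neutrophils, had a single count, which was in TAC 1. In the same libraries 3 of 10 neutrophil markers had no count at all, the others had some, and 1 passed the filter. The 10 markers summed to 0.411 to 1.15 CPM. Mmp12, the macrophage elastase, had 11 and 1 counts in the sham libraries and 2 and 5 counts in the TAC libraries.

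TAC was then compared with sham. A gene is called here when its edgeR quasi-likelihood p, adjusted by Benjamini-Hochberg over all genes tested, is under 0.05. Of the 42 tested members 3 were called, with Adam19 and Adamtsl5 higher and Adamts7 lower. This is 7.14% of the members tested against 5.01% of all genes tested, so the share was near the background (2.58% of all genes were called higher and 2.43% lower). At an unadjusted p under 0.05 there were 14 members, 5 higher and 9 lower, which is 11.9% and 21.4% of them against 13.5% and 14% of all genes. Both TAC libraries lay below both sham libraries for 18 members (42.9%, against 30.3% of all genes) and above them for 6 (14.3%, against 29.8%). The log2 fold change was below 0 for 31 members (73.8%, against 50.9% of all genes). The median log2 fold change was −0.28 over the members and −0.01 over all genes tested. With total-count scaling, which the study used, these medians were −0.46 and −0.20, and 0 members were called higher (0.84% of all genes) and 3 lower (3.38%), namely Adam11, Adamts7 and Timp2. DESeq2, which gave an adjusted p for 26 of the 42 members, called Adamtsl5 higher (4.46% of the genes it tested) and 4 members lower (4.3%), which were Adamts7, Mmp2, Timp2 and Timp3. TMM factors made without mitochondrial genes gave 2 members higher (2.6%) and 1 lower (2.42%). Without TAC 2 the member median was −0.46, and leaving out any other library gave −0.35 to −0.27. By family, the median log2 fold change was −0.53 for the 10 tested MMP genes, −0.35 for 13 ADAMTS genes, −0.28 for 10 ADAM genes, −0.22 for the 4 TIMP genes and −0.14 for the 5 ADAMTS-like genes. These family medians moved with single libraries. Without sham 1 they were −0.33 for MMP, −0.095 for ADAM, −0.45 for TIMP and 0.13 for ADAMTS-like genes, and without TAC 1 they were −0.34, −0.12, −0.047 and 0.038. Without sham 2 those of TIMP and ADAMTS-like genes were −0.10 and −0.062. Without TAC 2 those of ADAMTS, ADAM, TIMP and ADAMTS-like genes were −0.57, −0.42, −0.42 and −0.055.

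**Figure D2:**
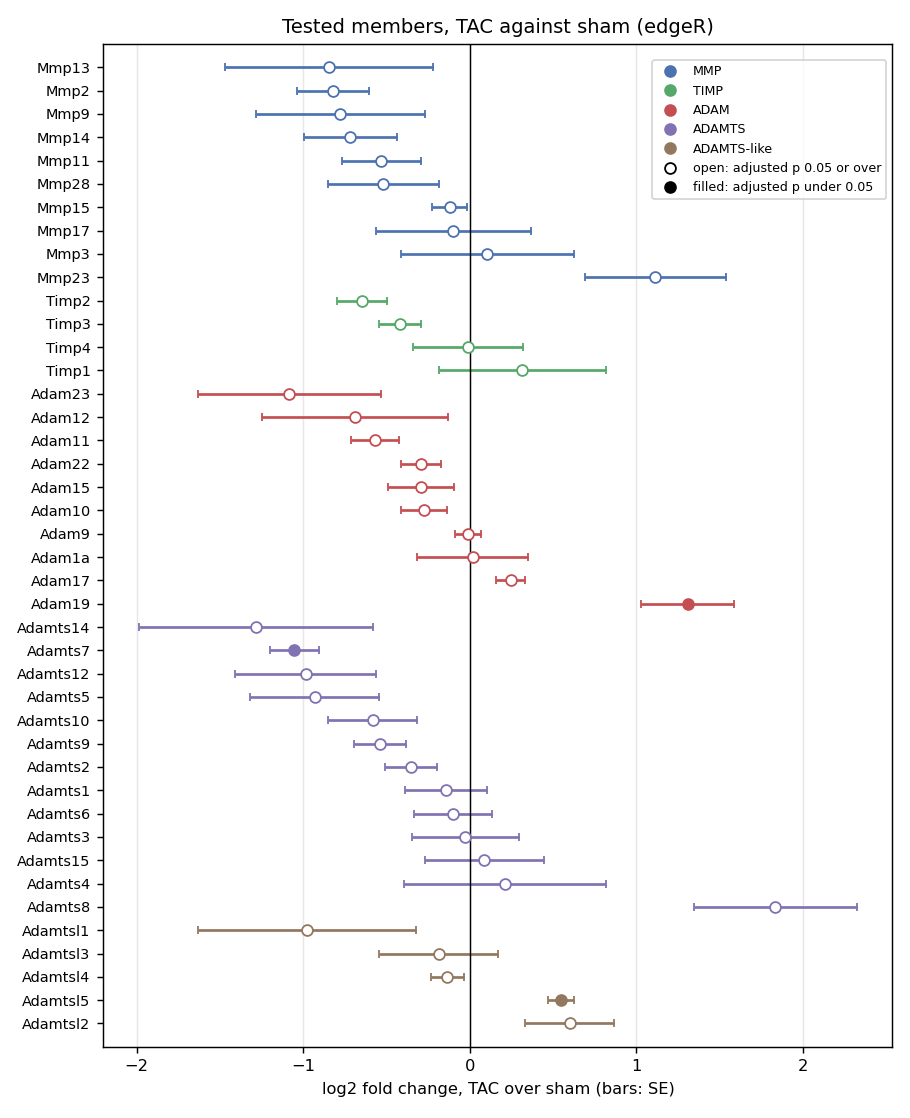
Log2 fold change of TAC over sham (points) with its standard error (bars) for the 42 tested members, grouped and coloured by family. Filled points mark Adam19, Adamtsl5 and Adamts7, which were called; most other members of the MMP and ADAMTS families lie left of 0 with open points.

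Adam19, also known as meltrin beta, is a membrane-bound protease that is needed for septa and valves to form in the developing heart. Its level was 27.4 CPM in sham 1, 13.2 CPM in sham 2, 54.1 CPM in TAC 1 and 46.8 CPM in TAC 2. Both TAC libraries were above both sham libraries, and the sham libraries differed from each other more than the TAC libraries did. The mean rose from 20.3 ± 10 to 50.4 ± 5.16 CPM (SD, n = 2 each), a 2.48-fold rise (log2 fold change 1.31 ± 0.28 SE, edgeR adjusted p = 0.0454). The adjusted p lay close to the threshold and the call was lost with total-count scaling (edgeR adjusted p = 0.0506), with DESeq2 (0.0871), without TAC 1 (0.089) and in the deposited FPKM (limma, 0.0976 and 0.0882). Over all alternatives the adjusted p went from 2.52e-07 to 0.0976, and the log2 fold change was positive in each, between 0.89 without sham 2 and 1.93 without sham 1.

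The gene lies on chromosome 11, positions 46055992 to 46147343 on the + strand (mm10, GENCODE M21), and 8.3% of its exon bases are shared with Gm16033 on the opposite strand. Promoters of tested members, 250 bases before to 50 after the annotated start, were available from RefSeq (GRCm38.p6) for 28 of the 42. They were searched for the AP-1 letters TGANTCA, on both strands, since Fos and Jun factors bind such letters and AP-1 is a textbook regulator of the stromelysin and collagenase genes. This was 1 of 3 motifs searched. The AP-1 letters were found for Adam19, Mmp3 and Mmp13 only, and in 7.81% of all 32851 promoters in the table. The GC box letters GGGCGG, on either strand, were found for 21 of the 28 members, Adam19 included (35.7% of all promoters), and the M-CAT letters CATTCC, on either strand, for Adam19, Adam1a and Timp1 (14.7%). The 3 windows are shown because they place the 1 called member beside the 2 MMP genes, with the matching letters in capitals. They are at chr11:46055843-46055869 (+ strand) for Adam19, chr9:7445766-7445792 (+ strand) for Mmp3 and chr9:7272469-7272495 (+ strand) for Mmp13, and the matches begin at −131, −46 and −35 relative to the start.
Adam19: gtccttcaccTGAGTCAgcgatgctcc
Mmp3: gaagcaattaTGAGTCAgttttcgggt
Mmp13: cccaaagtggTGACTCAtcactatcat
The match describes these letters and is not a measured binding site. Unlike Adam19, Mmp3 had 23 and 13 counts in the sham libraries and 12 and 21 counts in TAC, and Mmp13 had 23 and 11 counts in sham and 5 and 11 counts in TAC. Neither was called (edgeR adjusted p = 0.915 for Mmp3 and 0.407 for Mmp13).

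The other sheddases at measurable levels changed less. Adam17, the TNF-alpha converting enzyme, was at 28.7 and 27.7 CPM in sham 1 and 2 and at 32.4 and 34.5 CPM in TAC 1 and 2. Its TAC libraries were both higher, by 0.25 ± 0.087 on the log2 scale, but it was not called (edgeR adjusted p = 0.126), and in the deposited FPKM the difference was 0.03. Adam10, which cuts Notch receptors, was at 35.7, 30.4, 24 and 30.9 CPM in sham 1, sham 2, TAC 1 and TAC 2, and its groups overlapped (log2 fold change −0.27 ± 0.14, which was −0.15 without sham 1, −0.099 without TAC 1 and −0.46 without TAC 2). Adam15, a sheddase that also binds integrins, overlapped as well, with 27.3, 18.3, 16.5 and 20.8 CPM in the same order. Adam9, a widely expressed sheddase, hardly differed between groups. It stood at 50.1 and 52.1 CPM in sham and at 50.7 and 50.8 CPM in TAC, so that the means differed by −0.01 ± 0.076 on the log2 scale (edgeR adjusted p = 0.942).

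Adam11, Adam22 and Adam23 are known from the nervous system and lack the active site of a protease. Adam11 was at 13.3 and 16.5 CPM in sham and at 9.72 and 10.3 CPM in TAC, with the groups apart. Its log2 fold change of −0.57 ± 0.14 missed the threshold (edgeR adjusted p = 0.0634) and passed it with total-count scaling (0.0448) and without sham 1 (0.0181). Adam22 had 14.9 CPM in each sham library against 11.4 and 13 CPM in TAC (log2 fold change −0.30 ± 0.12, edgeR adjusted p = 0.163). Adam23 was low, with 28 and 17 counts in sham and 6 and 12 in TAC, and was not called. In all 3 genes both TAC libraries lay below both sham libraries, as they did for 30.3% of all genes tested.

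**Figure D3:**
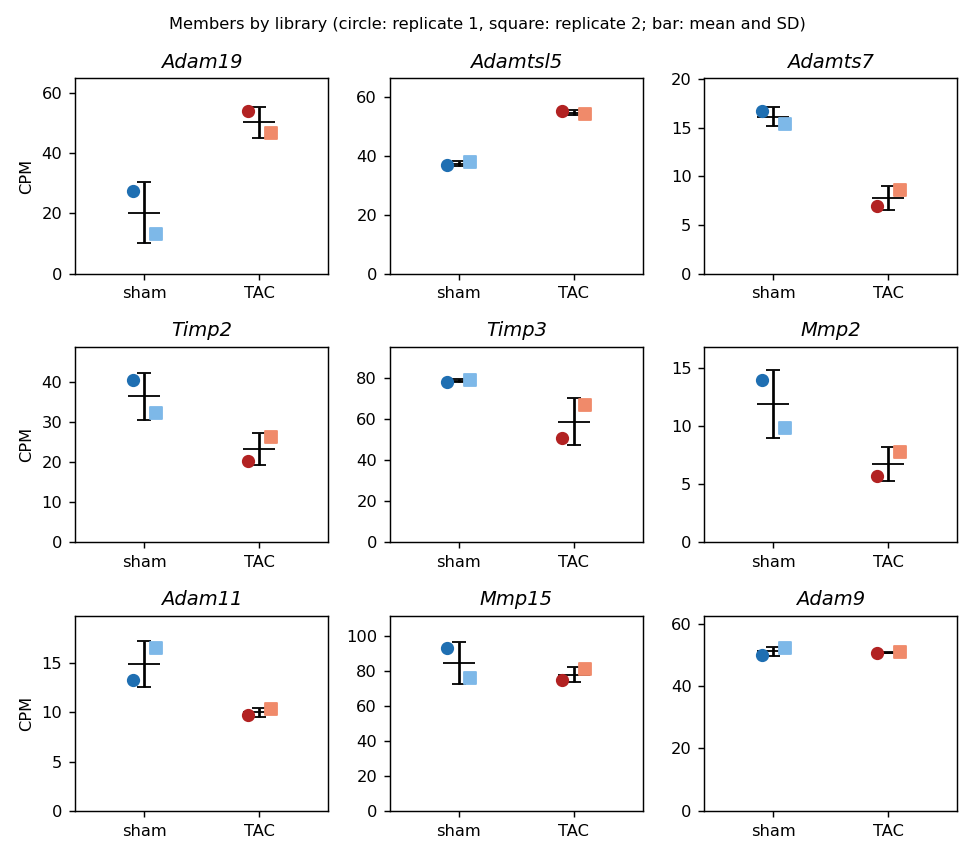
CPM of 9 members in each library (circles for replicate 1, squares for replicate 2), with the mean and SD of each group, n = 2. Adam19 and Adamtsl5 are higher in TAC and Adamts7 lower, while the groups overlap for Mmp15 and Adam9.

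Among the ADAMTS enzymes, Adamts7 was the 1 member called. ADAMTS7 is known to cut cartilage oligomeric matrix protein and has been linked to vascular smooth muscle. It was at 16.7 CPM in sham 1, 15.4 CPM in sham 2, 6.89 CPM in TAC 1 and 8.63 CPM in TAC 2, so that the groups were well apart. The mean fell from 16.1 ± 0.958 to 7.76 ± 1.23 CPM (SD, n = 2 each), 2.08-fold (log2 fold change −1.05 ± 0.15 SE, edgeR adjusted p = 0.0135). The call held in 11 of 12 alternatives, with log2 fold changes from −1.24 to −0.83 and adjusted p values from 3.62e-05 to 0.0527; the highest p was that of limma on log2(FPKM + 0.1). The gene is on chromosome 9, positions 90163069 to 90208071 on the + strand, and shares 1.9% of its exon bases with Tbc1d2b on the opposite strand.

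The proteoglycan-cutting ADAMTS enzymes act on versican and aggrecan and did not move together. Adamts1, the most abundant by FPKM, was at 31.2, 26.6, 34 and 18.2 CPM in sham 1, sham 2, TAC 1 and TAC 2. The TAC libraries lay on either side of the sham libraries, and the log2 fold change of −0.14 ± 0.25 became −0.66 without TAC 1 (edgeR adjusted p = 0.0478) and 0.24 without TAC 2 (0.244). Adamts9 was at 16.1 and 12.6 CPM in sham and at 9.15 and 10.6 CPM in TAC (log2 fold change −0.54 ± 0.16, edgeR adjusted p = 0.0873), and without sham 1 its difference was −0.35, and without sham 2 it was −0.70 (0.0358). Adamts5 was at 7.68 and 7.19 CPM in sham, and in TAC it was at 5.81 CPM in TAC 2 but at 2.08 CPM in TAC 1. Its log2 fold change of −0.93 ± 0.39 (edgeR adjusted p = 0.172) accordingly rested on TAC 1 and was −0.36 without that library and −1.83 without TAC 2. Adamts8 went the other way, with 22 and 7 counts in sham and 44 and 45 in TAC, where both libraries were higher. At 0.695 and 0.243 CPM in sham and 1.58 and 1.84 CPM in TAC its log2 fold change was the highest among the members, 1.84 ± 0.49, but it was not called (edgeR adjusted p = 0.0714; 1.29 without sham 2 and 2.79 without sham 1, where the adjusted p was 0.0159).

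The procollagen N-proteinases Adamts2, Adamts3 and Adamts14 remove the amino-terminal propeptide of fibrillar collagens. None was called. Both TAC libraries were below both sham libraries for Adamts2 (log2 fold change −0.35 ± 0.16, edgeR adjusted p = 0.196). Adamts14 had 11 and 12 counts in sham and 2 and 6 in TAC. It passed the low-count filter only through its sham libraries, so its lower TAC counts are not read as a difference. Adamts3 overlapped between groups (−0.03 ± 0.32), with −0.32 without TAC 1 and 0.29 without sham 2. Of the remaining tested enzymes, Adamts10, which is linked to fibrillin microfibrils, was at −0.58 ± 0.27 and Adamts12 at −0.98 ± 0.42 on the log2 scale (edgeR adjusted p = 0.204 and 0.183). Without sham 1 the difference of Adamts10 was −0.28 and without TAC 1 it was −0.35. Adamts6 overlapped at −0.10 ± 0.23, with −0.39 without TAC 1 and 0.13 without TAC 2.

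All 5 ADAMTS-like genes were tested. Adamtsl5, the most abundant member per length, was at 36.8 CPM in sham 1, 38 CPM in sham 2, 55.3 CPM in TAC 1 and 54.1 CPM in TAC 2, and the libraries of each group were close together. The mean rose from 37.4 ± 0.803 to 54.7 ± 0.902 CPM (SD, n = 2 each), 1.46-fold (log2 fold change 0.55 ± 0.077 SE, edgeR adjusted p = 0.0148). It was called in 9 of 12 alternatives, and leaving out a library gave 0.53 to 0.57. The call was lost with total-count scaling (log2 fold change 0.36, edgeR adjusted p = 0.122) and in the deposited FPKM (0.40 and 0.38, limma adjusted p = 0.121 and 0.117). Over the alternatives the adjusted p went from 0.00027 to 0.122. It lies on chromosome 10, positions 80339110 to 80348412 on the − strand, and shares no exon base with another annotated gene. Adamtsl4, which is linked to fibrillin microfibrils of the eye, was at 32.6, 35.8, 32.8 and 29.4 CPM in sham 1, sham 2, TAC 1 and TAC 2 and overlapped between groups (−0.14 ± 0.098, edgeR adjusted p = 0.396; −0.062 without sham 2, −0.22 without TAC 1 and −0.055 without TAC 2). Adamtsl2 had 52 and 48 counts in sham and 77 and 55 in TAC (0.60 ± 0.27, edgeR adjusted p = 0.195), and Adamtsl1 and Adamtsl3 overlapped.

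None of the 10 tested MMP genes was called by edgeR, 3 had an unadjusted p under 0.05 (Mmp2, Mmp14 and Mmp23; 27.5% of all genes tested did), and DESeq2 called 1, Mmp2, of the 4 for which it gave an adjusted p. Mmp15 made up most of the MMP level and was at 92.8, 76, 74.6 and 80.8 CPM in sham 1, sham 2, TAC 1 and TAC 2, with overlap (log2 fold change −0.12 ± 0.11, edgeR adjusted p = 0.492). Its difference changed sign to 0.032 without sham 1 and was −0.25 without sham 2 and −0.063 without TAC 1. Mmp2, the gelatinase A that also cuts sarcomere proteins inside heart muscle cells, was at 14 and 9.8 CPM in sham and at 5.74 and 7.77 CPM in TAC. Its TAC libraries were both lower, and the log2 fold change of −0.82 ± 0.22 missed the threshold (edgeR adjusted p = 0.0711; DESeq2 adjusted p = 0.0239). Over the alternatives the adjusted p of Mmp2 went from 0.00594 to 0.221. It was −0.54 without sham 1 and −0.62 without TAC 1, and about −1.05 without sham 2 or TAC 2, where it was called (edgeR adjusted p = 0.0126 and 0.0271). Mmp14, the membrane-type enzyme that activates the Mmp2 proenzyme, was at 4.49 and 2.85 CPM in sham and at 2.26 and 2.21 CPM in TAC (−0.72 ± 0.28, edgeR adjusted p = 0.151). Leaving out sham 1 moved Mmp14 to −0.35. Mmp23, a membrane-anchored enzyme, was higher in both TAC libraries, with 35 and 18 counts in sham and 66 and 34 in TAC (1.11 ± 0.42, edgeR adjusted p = 0.145), or 1.11 and 0.626 CPM against 2.37 and 1.39 CPM. Without TAC 1 its difference was 0.67 on the log2 scale. Mmp9, the gelatinase B of leukocytes, had 17 and 15 counts in sham and 7 and 9 in TAC and was not called (edgeR adjusted p = 0.352).

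The inhibitors were next. Timp3, which is held in the matrix, was at 78.2 and 79.2 CPM in sham and at 50.6 and 66.9 CPM in TAC. Timp2, which takes part in the activation of Mmp2 at the cell surface as well as in its inhibition, was at 40.6 and 32.3 CPM in sham and at 20.4 and 26.2 CPM in TAC. In both genes the groups were apart, TAC 1 was the lowest library and TAC 2 lay between TAC 1 and sham. The mean of Timp2 was 36.4 ± 5.89 CPM in sham and 23.3 ± 4.05 CPM in TAC (SD, n = 2 each; log2 fold change −0.65 ± 0.15 SE, edgeR adjusted p = 0.0545), and that of Timp3 was 78.7 ± 0.693 and 58.8 ± 11.6 CPM (−0.42 ± 0.13, edgeR adjusted p = 0.0898). Both missed the threshold in the reported edgeR fit and passed it with DESeq2 (adjusted p = 0.00427 and 0.0335). In edgeR without the low-count filter both passed it as well (adjusted p = 0.00228 and 0.0164). Timp2 alone also passed it in edgeR with total-count scaling (adjusted p = 0.0479) and with a block for replicate number (0.0454). Without TAC 1 the log2 fold change was −0.48 for Timp2 and −0.23 for Timp3, and without TAC 2 it was −0.83 and −0.64 (edgeR adjusted p = 0.011 and 0.00601). Over the alternatives the adjusted p ranged from 0.00228 to 0.147 for Timp2 and from 0.00601 to 0.263 for Timp3. No source used here gives the use of strand in the counting, and 21.3% of the exon bases of Timp3 are shared with Syn3 on the opposite strand. The same limit holds for Adam15, with 20.6% shared with 4731419I09Rik, and for Adamts8, with 10.6% shared with Gm29724, both on the opposite strand.

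Timp4, the inhibitor known to be enriched in the heart, showed a wide spread in sham, with 8.19 CPM in sham 1 and 18.6 CPM in sham 2 around 11.8 and 14.7 CPM in TAC. The difference of −0.01 ± 0.33 on the log2 scale (edgeR adjusted p = 0.987) was small, and it changed its sign with the sham library left out, to −0.49 without sham 1 and 0.70 without sham 2. Timp1, an inhibitor that rises in fibrosis and inflammation, was low in all libraries, with 17 and 13 counts in sham and 12 and 20 in TAC. Its groups overlapped (0.32 ± 0.50, edgeR adjusted p = 0.712), and its difference was 0.72 without TAC 1 and −0.20 without TAC 2.

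**Figure D4:**
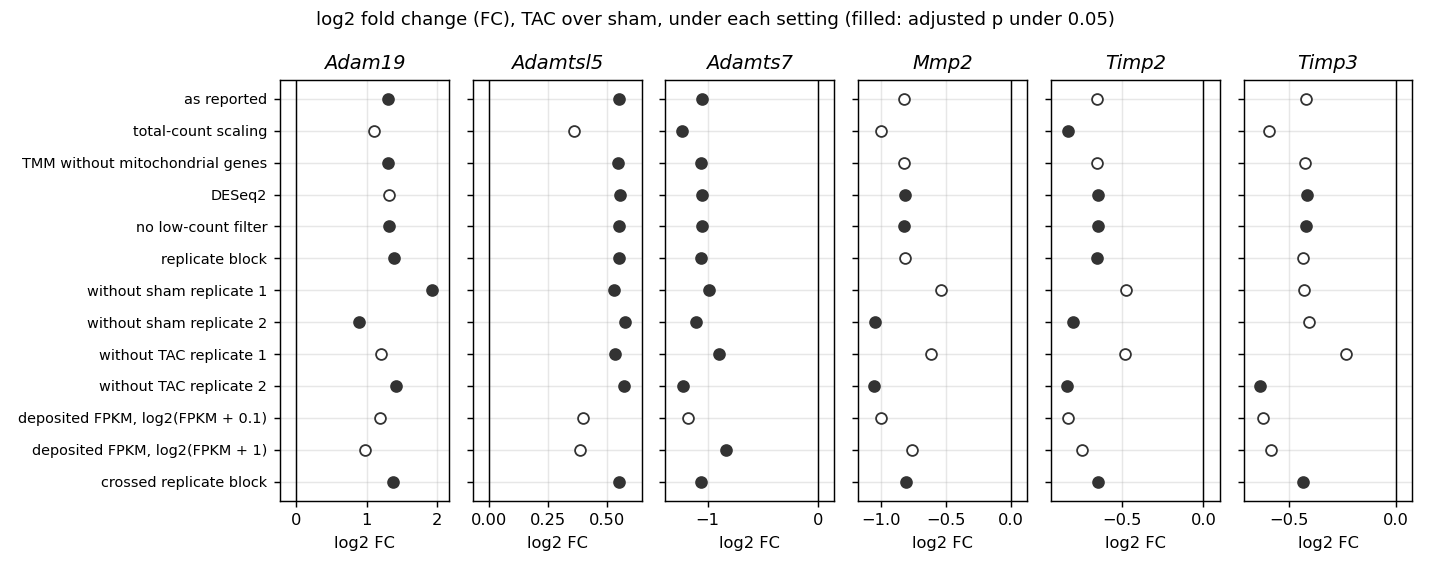
Log2 fold change of TAC over sham for 6 members under each setting, where filled points have an adjusted p under 0.05. All points lie on the side of 0 of the reported value, and Adamts7 is filled in all but 1 alternative, log2(FPKM + 0.1).

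Genes of other heart cells also differed between the libraries. In bulk RNA, fewer cells of a type and less RNA per cell cannot be told apart. The 10 fibroblast markers summed to 508 CPM in sham 1, 353 CPM in sham 2, 192 CPM in TAC 1 and 272 CPM in TAC 2, all 10 were lower in both TAC libraries (30.3% of all genes tested were), and 4 were called lower (2.43% of all genes). Endothelial markers summed to 590, 462, 277 and 387 CPM in the same order (3 of 10 called lower), mural markers to 765, 803, 443 and 584 CPM (2 of 10) and macrophage markers to 136, 68.8, 35.9 and 69.1 CPM (0 of 10, with 6 of 10 lower at an unadjusted p under 0.05, against 14% of all genes). Without TAC 1 none of the 4 fibroblast and 2 mural markers behind these counts was called (edgeR adjusted p from 0.0821 to 0.116), and of the 3 endothelial ones only Cdh5 was. In the FPKM fits, too, Cdh5 was the only 1 of these 9 markers called. The mural sum rests largely on Abcc9, a potassium channel subunit that heart muscle cells also use, which was at 380, 406, 279 and 303 CPM in that order. The median log2 fold change was −0.86, −0.62, −0.86 and −0.94 for these lists and 0.06 for the 9 heart muscle markers. The median of the heart muscle markers was −0.012 without sham 1, 0.148 without sham 2 and −0.12 with total-count scaling. Those 9 went in both directions, from −0.38 for the calcium channel Ryr2 to 0.52 for the troponin Tnnc1, which was called higher (edgeR adjusted p = 0.0278). That call held in 7 of 12 alternatives and was lost with total-count scaling (0.126), without sham 1 (0.0672), without TAC 1 (0.0647) and in the FPKM fits (limma, 0.206 and 0.189). Of the 9, at an unadjusted p under 0.05 there were 4 higher and 1 lower. Without sham 1 the macrophage median was −0.37 and without TAC 1 it was −0.62, where the mural median was −0.52. Without TAC 2 the endothelial and macrophage medians were −0.96 and −1.42. No marker of these 5 lists was at 0. The order sham 1, sham 2, TAC 2, TAC 1 from high to low, found for the fibroblast and endothelial sums, was seen in 10 of the 42 tested members (23.8%, against 12% of all genes), among them Mmp2, Timp2 and Adamts7. It was also seen in 10 of 10 fibroblast, 8 of 10 endothelial, 7 of 10 mural and 6 of 10 macrophage markers and in 0 of 9 heart muscle markers. It was chosen after the values had been seen, and the part of these markers in the differences of the members was not tested.

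The fibroblast sum was lower in TAC, as were the 9 members that were lower at an unadjusted p under 0.05. Dividing these members by that sum therefore shifted their ratios upward by construction, and the part of fibroblasts in the falls was not tested. When each member was divided by the fibroblast sum, also chosen after seeing the values, Mmp2 had the smallest spread of these 9. It came to 2.76 and 2.78 CPM per 100 CPM of fibroblast markers in sham 1 and 2 and to 2.99 and 2.86 in TAC 1 and 2, and without Gsn, the largest marker of the list, the highest library was 1.04 times the lowest. Timp2 came to 7.99, 9.15, 10.6 and 9.63 CPM per 100 CPM, a log2 ratio of TAC to sham of 0.24 where the unscaled one was negative. Against the endothelial sum Timp2 was flatter, with 6.88, 6.99, 7.36 and 6.77 CPM per 100 CPM (log2 ratio 0.03), and against the mural sum its log2 ratio was −0.04. Mmp2 came to log2 ratios of −0.14 and −0.22 against these 2 sums. Adamts7, at −1.05 with the groups apart when unscaled, came to a log2 ratio of −0.18 per fibroblast marker with overlapping groups (3.29 and 4.36 in sham, 3.59 and 3.17 in TAC). Against the endothelial sum its groups stayed apart (2.83 and 3.33 in sham, 2.49 and 2.23 in TAC, log2 ratio −0.39). They also stayed apart against the mural sum (2.18 and 1.92 in sham, 1.56 and 1.48 in TAC, log2 ratio −0.44). For the other 6 of these members the log2 ratio per fibroblast marker was 0.58 for Adam22, 0.43 for Timp3, 0.36 for Adamts9, 0.28 for Adam11, 0.23 for Mmp14 and −0.14 for Adamts5. The rises went in the other direction from the markers, so that the log2 ratio grew to 2.31 for Adam19 and to 1.43 for Adamtsl5. Set against the heart muscle markers in place of the fibroblast markers, these ratios were 1.29 for Adam19 and 0.55 for Adamtsl5. With the same heart muscle markers they were −0.82 for Mmp2, −0.65 for Timp2 and −1.04 for Adamts7. For the other 6 lower members they lay between −0.9 for Adamts5 and −0.28 for Adam22. Against the macrophage sum the log2 ratios of Mmp2, Timp2 and Adamts7 were 0.15, 0.3 and −0.13.

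**Figure D5:**
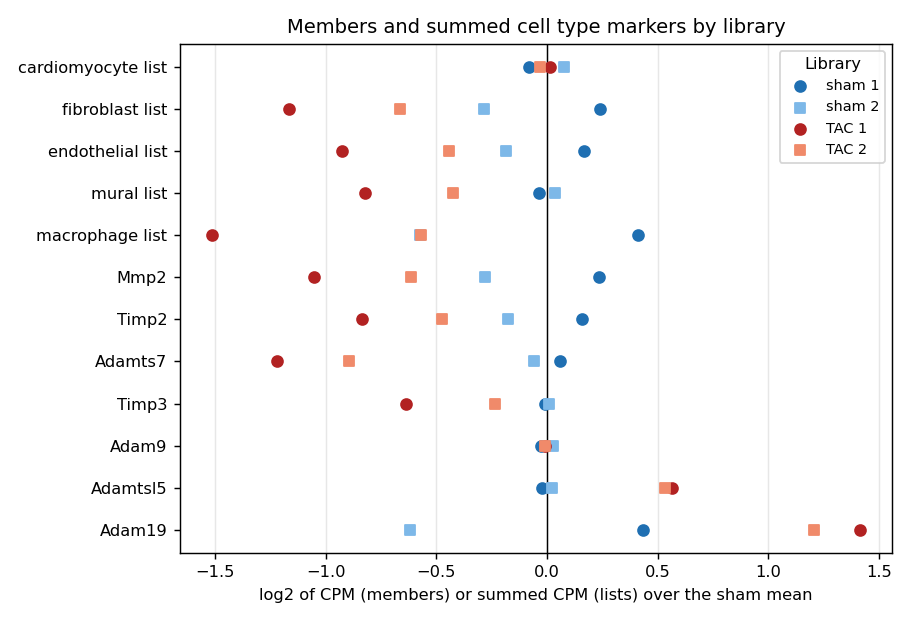
Log2 level over the sham mean for summed markers of 5 cell types and for 7 members, one point per library. Mmp2 and Timp2 follow the order of the fibroblast and endothelial lists (sham 1, sham 2, TAC 2, TAC 1), Adam9 stays near 0 as does the cardiomyocyte sum, and Adamtsl5 and Adam19 are higher in TAC.

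Genes that act with these proteases were read from lists made by role. Of 18 tested activators and upstream proteases, 1 was called higher and 0 lower by edgeR, with 2 higher and 6 lower at an unadjusted p under 0.05. Of all genes tested, 2.58% were called higher and 2.43% lower, and 13.5% and 14% were higher and lower at an unadjusted p under 0.05. The called gene was Ctsl, the lysosomal cathepsin L, at 137 and 133 CPM in sham and 183 and 171 CPM in TAC (log2 fold change 0.39 ± 0.073, edgeR adjusted p = 0.0313), and it was at 0.20 with total-count scaling (0.336). The call held in 7 of 12 alternatives and was also lost without sham 2 (0.0621), without TAC 1 (0.11) and in both FPKM fits (limma, highest adjusted p 0.384). Furin, which removes the propeptide of membrane-type MMPs, ADAMs and ADAMTS enzymes, was at 82.5 and 76.3 CPM in sham and 86.5 and 85.9 CPM in TAC (edgeR adjusted p = 0.341). The related convertases Pcsk5, Pcsk6 and Pcsk7 were lower in both TAC libraries, as were 30.3% of all genes tested. Their log2 fold changes were −1.14, −0.997 and −0.225 (edgeR adjusted p = 0.169, 0.0619 and 0.244). None of 11 tested inhibitors and clearance receptors was called by edgeR, where 3 were lower at an unadjusted p under 0.05. Among them Lrp1, the endocytic receptor for TIMP and ADAMTS proteins, was at −0.78 ± 0.18 (edgeR adjusted p = 0.0535). None of 12 partners that carry ADAMs to the cell surface or bind their tails was called either, with 1 higher and 1 lower at an unadjusted p under 0.05. The higher one was Rhbdf2, the iRhom2 that escorts Adam17, at 8.06 and 7.51 CPM in sham and 10.7 and 10.1 CPM in TAC (0.42 ± 0.13, edgeR adjusted p = 0.102). The lower one was Tspan5, at 2.5 and 2.57 CPM in sham and 1.04 and 1.88 CPM in TAC (−0.80 ± 0.33, edgeR adjusted p = 0.171).

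Substrates showed 1 clear rise. Of 25 tested membrane proteins known to be shed, Hbegf was called higher and Cdh5, Efnb2 and Notch2 lower, against 2.58% and 2.43% of all genes. Hbegf, the heparin-binding EGF-like growth factor released by ADAM sheddases, was at 13.6 CPM in sham 1, 11.2 CPM in sham 2, 33.9 CPM in TAC 1 and 36.5 CPM in TAC 2. Both TAC libraries were far above sham (log2 fold change 1.50 ± 0.12, edgeR adjusted p = 0.00342), and the call held in 12 of 12 alternatives with log2 fold changes of 1.18 to 1.65 (highest adjusted p 0.0173). Cdh5, the cadherin of endothelial junctions and also 1 of the endothelial markers, was at −0.85 ± 0.12. It was called in 12 of 12 alternatives. Efnb2, a ligand of Eph receptors, was at −0.81 ± 0.16 and the receptor Notch2 at −0.68 ± 0.13 (edgeR adjusted p = 0.0361 and 0.0358). Each was called in 8 of 12 alternatives. Their adjusted p was 0.0679 and 0.105 without sham 1 and 0.107 and 0.0898 without TAC 1, and both were also lost in the FPKM fits (limma, highest adjusted p 0.098 and 0.153). The median log2 fold change of these 25 genes was −0.53, against −0.01 for all genes tested, and it was −0.31 without sham 1, −0.32 without TAC 1 and −0.82 without TAC 2. Of 20 tested matrix substrates, 1 was called lower, Nid1 of the basement membrane (−0.68 ± 0.15, edgeR adjusted p = 0.0477), and at an unadjusted p under 0.05 there were 10 lower and 1 higher (14% and 13.5% of all genes). The call of Nid1 held in 8 of 12 alternatives and was lost without sham 1 (0.0697), without TAC 1 (0.12) and in the FPKM fits (limma, 0.102 and 0.0976). The fibrillar collagens Col1a1, Col1a2 and Col3a1, which are also fibroblast markers, were at −0.75, −0.91 and −0.87. Vcan, the versican cut by ADAMTS enzymes, overlapped between groups (−0.38 ± 0.28, edgeR adjusted p = 0.415).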

How the data were processed

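The authors deposited, for each library, an expected count per gene (an estimate, not always whole) together with FPKM, whose length and total are not stated. The submitters' processing notes name Bowtie2 2.2.8, StringTie 1.3.1 and mm10, without their roles. Libraries came from separate mice according to the methods of the study. Gene positions are from GENCODE M21 and promoters from RefSeq. Groups and replicate numbers came from the sample titles. Expected counts were rounded and tested in R 4.3.3 with edgeR 4.0.16 (filterByExpr, TMM, glmQLFit, glmQLFTest, no block), with Benjamini-Hochberg adjustment across the 12499 genes tested. The standard error is the size of the log2 fold change divided by the square root of F. Alternatives used total counts, TMM without mitochondrial genes, DESeq2 1.42.0, no filter, a block, 1 library left out, limma 3.58.1 on log2(FPKM + 0.1) and log2(FPKM + 1), and a crossed block added after the data were seen. Values in every library were given for members called, with an unadjusted p under 0.05 or with a mean FPKM over 2 (21 members), and list genes were named where called or as examples of a role. Examples of a role were picked after their values were seen. Members and lists were chosen with earlier results of these data known. Counts that were not whole occurred for 3 to 7 members per library, and no source used here says how shared fragments were divided.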

Additional observations from a re-analysis of the deposited data

How the results depend on the processing

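The 21 members given in every library kept their call status in 211 of 250 comparisons with an alternative that gave an adjusted p (DESeq2 gave none for Adamts8 and Mmp23), lost a call in 9 and gained one in 30, and no called value changed its sign; the cause was not tested unless stated. Of all genes, 626 were called (322 higher, 304 lower). This became 1676 (707 and 969) with no low-count filter, 195 (68 and 127) and 214 (69 and 145) with limma on FPKM with a pseudocount of 0.1 and 1, 1817 (878 and 939) at an adjusted p under 0.1 and 92 (70 and 22) at one under 0.01, as the threshold sets. With total-count scaling 105 genes were higher, and 80.1% of the calls were lower against 48.6% with TMM. Leaving out a library gave 301 to 1336 genes, 183 to 560 higher and 118 to 776 lower, lowest without TAC 1 and highest without TAC 2. Of the members, 3 were called (2 higher, 1 lower). DESeq2 called 5 (1 and 4) of the 26 it gave an adjusted p, edgeR with no filter 10 (7 lower), and total-count scaling 0 higher (18 members of either direction at an unadjusted p under 0.05) and 3 lower. Limma on FPKM called 0 members with the smaller pseudocount (14 at an unadjusted p under 0.05; 0 higher, 0 lower) and 1 with the larger (0 higher). An adjusted p under 0.1 gave 9 (6 lower), and one under 0.01 gave 0 (0 higher, 0 lower). At an unadjusted p under 0.05 by edgeR there were 14, against 27.5% of all genes tested. No such share of all genes is given for total-count scaling or limma, nor the number of genes tested without the filter. The unadjusted member counts of the former and the member count of the latter therefore stand without a background share. Leaving out a library gave 3 to 7, with 1 to 3 higher and 2 to 5 lower. The counts were 5 and 6 when sham 1 or sham 2 was left out, and 3 and 7 when TAC 1 or TAC 2 was. The replicate block gave 566 genes and 4 members (2 lower, Timp2 added), but the shared numbers were not shown to pair the libraries, since their deviations correlated at −0.28 over 8492 genes. The crossed pairing, added after seeing the data, called 2131 genes (968 and 1163) and 10 members (7 lower).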

Other observations

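The transcript length that follows from count, FPKM and library total was within 10% in all libraries for most members, but differed by over 10% for 2 of the 17 members with an FPKM of 1 or more throughout. For Timp4 it was 4063 bases in sham 1 against 3015 in sham 2, 2878 in TAC 1 and 3131 in TAC 2, so the library with the lowest Timp4 level also had the longest implied transcript. For Adam22 it was 7438 and 8333 bases in sham 1 and 2 and 6760 and 9020 bases in TAC 1 and 2, with no separation of the groups. The deposited files hold no values per transcript, so which transcripts were counted was not tested.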
